A study of Mus musculus with 11 samples.

Results

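The dual-specificity MAP kinase phosphatases examined here are the 9 genes Dusp1, Dusp2, Dusp4, Dusp5, Dusp6, Dusp7, Dusp8, Dusp10 and Dusp16, chosen by family membership from the 21957 genes of the count table, and all 9 were found there by symbol. The cells were OT1 CD8 T cells of the mouse, whose transgenic antigen receptor recognises a peptide of ovalbumin and which the labels call primed. One group was stimulated for 2 h with beads carrying antibodies to CD3 and CD28, and the other rested unstimulated for the same 2 h by the protocol, though its time label is T0. Both groups received cycloheximide, which stalls ribosomes on mRNA, for 10 min before harvest. RNA was sequenced from 3 stimulated and 3 unstimulated samples, and ribosome footprints, the mRNA pieces shielded by ribosomes, from 2 stimulated (replicates 2 and 3) and 3 unstimulated samples. The labels do not say whether replicates were separate cultures or mice, nor how or how long before the cells had been primed, so the p-values below measure the spread between these samples, which may be technical.

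MAP kinases (ERK, p38 and JNK) are switched on when a threonine and a tyrosine in their activation loop are phosphorylated, and the dual-specificity phosphatases remove both phosphates. In T cells the antigen receptor and CD28 feed into all of these kinases, and several of the phosphatase genes are themselves immediate targets of the kinases they switch off, a textbook negative feedback loop. The family is usually divided into inducible nuclear enzymes (Dusp1, Dusp2, Dusp4 and Dusp5), cytoplasmic enzymes selective for ERK (Dusp6 and Dusp7, with Dusp9) and enzymes selective for p38 and JNK (Dusp8, Dusp10 and Dusp16).

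Promoter sequences from RefSeq (GRCm38.p6) were matched by symbol for 8 of the 9 genes, all but Dusp4. The 250 bases before the start that the RefSeq promoter table uses are shown for the 4 genes with an entry whose RNA changed, and for Dusp1, the inducible enzyme whose RNA did not pass the test. For Dusp7, Dusp8 and Dusp16 that start lies inside the gene's annotated span. The windows of Dusp8 and Dusp16 lie wholly within the span, and that of Dusp7 in part. Capitals mark matches, on either strand, to a cAMP response element (CRE, TGACGTCA), an AP-1 site (TGANTCA), an EGR site (GCGNGGGCG), the CArG box of serum response factor or an NF-kappaB site.
Dusp2 (chr2:127335909-127336158, plus strand): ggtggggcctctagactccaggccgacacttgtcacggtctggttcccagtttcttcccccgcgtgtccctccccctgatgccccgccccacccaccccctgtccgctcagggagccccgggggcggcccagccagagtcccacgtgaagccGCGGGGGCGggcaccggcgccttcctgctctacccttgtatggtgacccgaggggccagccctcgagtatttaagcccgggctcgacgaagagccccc
Dusp5 (chr19:53528895-53529144, plus strand): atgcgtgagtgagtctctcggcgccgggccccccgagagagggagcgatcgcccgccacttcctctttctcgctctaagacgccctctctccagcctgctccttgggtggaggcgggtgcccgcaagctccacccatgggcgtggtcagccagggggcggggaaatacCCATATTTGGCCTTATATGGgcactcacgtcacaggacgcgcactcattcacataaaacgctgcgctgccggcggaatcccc
Dusp8 (chr7:142095285-142095534, minus strand): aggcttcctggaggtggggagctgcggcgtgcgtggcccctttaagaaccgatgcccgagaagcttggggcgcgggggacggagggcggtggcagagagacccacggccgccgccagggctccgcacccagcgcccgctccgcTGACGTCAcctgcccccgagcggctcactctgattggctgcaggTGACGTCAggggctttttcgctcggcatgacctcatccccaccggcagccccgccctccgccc
Dusp10 (chr1:184034131-184034380, plus strand): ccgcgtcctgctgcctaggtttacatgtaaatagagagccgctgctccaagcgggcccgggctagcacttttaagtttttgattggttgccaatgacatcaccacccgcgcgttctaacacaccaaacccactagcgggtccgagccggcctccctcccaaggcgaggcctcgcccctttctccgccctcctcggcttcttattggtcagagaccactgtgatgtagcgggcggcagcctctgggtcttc
Dusp1 (chr17:26508473-26508722, minus strand): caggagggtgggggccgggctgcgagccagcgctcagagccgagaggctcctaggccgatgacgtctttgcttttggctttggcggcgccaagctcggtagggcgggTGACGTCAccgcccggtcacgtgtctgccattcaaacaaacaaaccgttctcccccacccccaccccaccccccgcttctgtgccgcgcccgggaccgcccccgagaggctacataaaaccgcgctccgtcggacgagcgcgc
Dusp5 held a pair of adjacent CArG boxes, CCATATTTGG from 82 to 73 and CCTTATATGG from 72 to 63 bases before the start. Over all 32851 RefSeq promoter windows of this length, 1.47% held a CArG box. Dusp1 held 1 CRE and Dusp8 held 2, against 1.55% of all windows with any. Dusp2 held an EGR site, a motif in 4.70% of windows, and among the other matched family members Dusp16 held one as well. Dusp10, Dusp6 and Dusp7 had none of these letters in the window, and no family member matched the AP-1 motif (6.75% of windows) or the NF-kappaB motif (7.25%). The CArG, CRE and EGR matches do not overlap one another. A match is a description of the letters and not a measured binding site.

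RNA libraries held 21658263 to 39346699 counts and footprint libraries 11136 to 23641. Levels are CPM, a gene's count as a share of the library's total on the usual CPM scale, after TMM (trimmed mean) scaling within each assay, and since coding lengths were not used here, levels are compared between samples and not between genes. The CD8 T cell markers Cd3d, Cd3e, Cd3g, Cd8a, Cd8b1, Cd2, Lck and Cd247 summed to 1846 to 2941 CPM in stimulated and 2531 to 2858 CPM in unstimulated RNA, and none of the 8 passed the test. The 5 myeloid markers summed to 4.24 to 8.03 CPM in stimulated and 2.41 to 5.72 CPM in unstimulated RNA. They had 1 footprint in all. Cd4 averaged 2.49 CPM in stimulated and 1.36 CPM in unstimulated RNA, with 0 footprints. Of 24 markers of other cell types measured and 21 tested, Cd40lg and Zbtb46 passed as higher and Alas2 as lower. Their part in the results was not tested. In these bulk samples, fewer cells of a type and less RNA per cell cannot be told apart.

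Among the inducible nuclear enzymes, the RNA of Dusp2, Dusp4 and Dusp5 rose after stimulation, about 2-fold to 3-fold, and that of Dusp1 did not pass the test. Dusp2 (PAC-1, chromosome 2, 127336159 to 127338377), first known from activated lymphocytes, stood at 349, 443 and 657 CPM in the stimulated libraries, against 229, 192 and 240 CPM in the unstimulated ones. All 3 stimulated libraries lay above all 3 unstimulated ones. The log2 change was 1.13 ± 0.25 (SE), a 2.19-fold rise, with adjusted p = 0.0156 by edgeR's quasi-likelihood test. That call was lost with RLE scaling, which takes median ratios of counts (0.0701), without stimulated replicate 2 (0.112) and without unstimulated replicate 3 (0.0669), and adjusted p was between 1.3e-06 and 0.112 over 14 alternatives.

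Dusp4 (MKP-2, chromosome 8, 34807610 to 34819894), which acts on ERK, JNK and p38 in the nucleus, had 97.7, 119 and 169 CPM in stimulated cells, against 52.5, 39.8 and 54.1 CPM in unstimulated cells. The groups did not overlap, and the lowest stimulated library was well above the highest unstimulated one. Its log2 change was 1.40 ± 0.23 (adjusted p = 0.00379 by edgeR), and it passed in all 14 alternatives, between 0.99 and 1.48.

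Dusp5 (chromosome 19, 53529145 to 53541809), a nuclear phosphatase selective for ERK, had 337, 394 and 548 CPM in stimulated cells and 234, 215 and 246 CPM in unstimulated cells. The groups again did not overlap. The log2 change was 0.88 ± 0.22, a 1.84-fold rise (edgeR adjusted p = 0.0291). It passed in 6 of 14 alternatives, with adjusted p between 9.8e-08 and 0.279. It was lost with DESeq2 (log2 change 0.56, adjusted p = 0.0998), RLE scaling (0.149), scaling without 4 very abundant genes, Gm10800, Gm10801, Gm20594 and Lars2 (0.0658) and no filter (0.124). It was also lost without stimulated replicate 1 (0.185) or 2 (0.279) and without unstimulated replicate 1 (0.123) or 3 (0.235). Without unstimulated replicate 2 it passed with a smaller change of 0.55.

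Dusp1 (MKP-1, chromosome 17, 26505591 to 26508472), an immediate early gene whose product acts on p38, JNK and ERK, did not move clearly either way. It had 46.2, 50.3 and 68.1 CPM in stimulated cells and 64.0, 54.1 and 62.5 CPM in unstimulated cells, with overlapping groups. Its log2 change was -0.13 ± 0.18 (edgeR adjusted p = 0.594). It passed as lower without stimulated replicate 3 (-0.33, adjusted p = 0.0365) or unstimulated replicate 2 (-0.47, adjusted p = 2.8e-04), with adjusted p up to 0.770 in the other alternatives. Those fits called 4271 of 19468 and 6173 of 19219 tested genes as lower, in that order. Whether the change of Dusp1 differs from that of Dusp2, Dusp4 or Dusp5 was not tested.

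**Figure D1:**
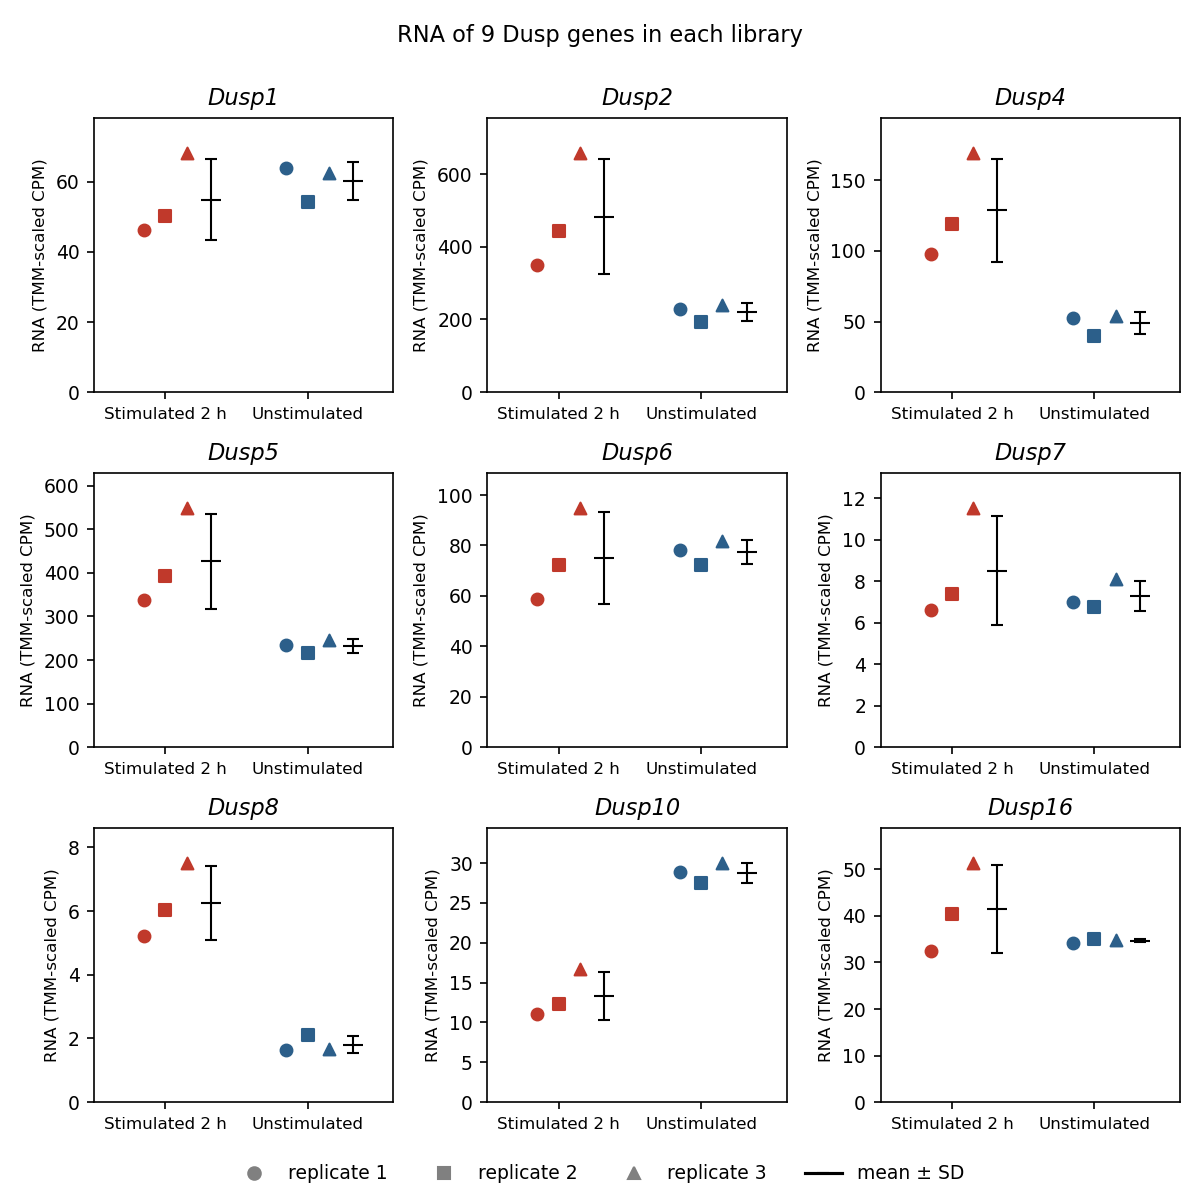
RNA level of each gene in TMM-scaled CPM (vertical axis, from 0) in the 3 stimulated and 3 unstimulated libraries, with a marker for each replicate and the mean ± SD beside them. Stimulated libraries lie above all unstimulated ones for Dusp2, Dusp4, Dusp5 and Dusp8, below them for Dusp10, and overlap them for Dusp1, Dusp6, Dusp7 and Dusp16.

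Neither cytoplasmic, ERK-selective enzyme passed the test. Dusp6 (MKP-3, chromosome 10, 99263231 to 99267489), a widely used transcriptional readout of ERK activity in other tissues, had 58.7, 72.1 and 94.7 CPM in stimulated cells, against 78.3, 72.4 and 81.9 CPM in unstimulated cells. The stimulated values lay on both sides of the unstimulated ones. The log2 change was -0.04 ± 0.19 (edgeR adjusted p = 0.871). It was 0.044 with scaling on genes of at least 10 CPM, and without unstimulated replicate 2 it passed as lower (-0.36, adjusted p = 0.00474), over a range of adjusted p up to 0.881. The fit without unstimulated replicate 2 called 6173 of 19219 tested genes as lower. Dusp7 (chromosome 9, 106368560 to 106375724) had 6.62, 7.40 and 11.5 CPM in stimulated cells and 6.996, 6.77 and 8.11 CPM in unstimulated cells. Its log2 change of 0.22 ± 0.25 (edgeR adjusted p = 0.527) passed in none of 13 alternatives and took either sign.

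Of the 3 enzymes selective for p38 and JNK, Dusp10 fell, Dusp8 rose and Dusp16 did not pass. Dusp10 (MKP-5, chromosome 1, 184034381 to 184075636) is known from knockout mice as a brake on JNK in T cells. It had 11.03, 12.3 and 16.8 CPM in stimulated cells, against 28.9, 27.5 and 29.98 CPM in unstimulated cells. The highest stimulated library was well below the lowest unstimulated one. The log2 change was -1.11 ± 0.17, a 2.16-fold decrease (edgeR adjusted p = 0.00237), and it passed in all 14 alternatives, between -1.43 and -1.02.

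Dusp8 (chromosome 7, 142079487 to 142095907) had few reads. It stood at 5.21, 6.04 and 7.498 CPM in stimulated cells, from 118, 159 and 175 reads, and 1.63, 2.12 and 1.67 CPM in unstimulated cells, from 69, 64 and 70 reads. Groups did not overlap, and the log2 change of 1.79 ± 0.34 was a 3.46-fold rise (edgeR adjusted p = 0.00759). By library totals, 1541 olfactory receptor, vomeronasal receptor and defensin genes summed to 2759, 2030 and 686 CPM in stimulated RNA. In unstimulated RNA they summed to 300, 1886 and 407 CPM. The part of such low-level reads in the change of Dusp8 was not tested. The call for Dusp8 was lost without stimulated replicate 2 (0.0510) or unstimulated replicate 3 (0.0509), with adjusted p from 2.8e-04 upward in 13 alternatives. Dusp16 (MKP-7, chromosome 6, 134715468 to 134807063), which acts mainly on JNK, had 32.5, 40.5 and 51.3 CPM in stimulated cells and 34.3, 34.96 and 34.9 CPM in unstimulated cells. The unstimulated libraries were nearly equal and lay inside the stimulated range. The log2 change was 0.25 ± 0.18 (edgeR adjusted p = 0.362). With scaling on genes of at least 10 CPM Dusp16 passed as higher (0.35, edgeR adjusted p = 4.5e-04), as did 36.9% of all genes tested that way. The 13 other alternatives did not pass it, with adjusted p up to 0.929. Annotated non-coding genes overlap Dusp6 (Gm34921), Dusp8 (Gm32786) and Dusp16 (Gm36328 and 1700055D16Rik). How strands were counted is not given in the sources used here, so reads of overlapping genes cannot be told apart.

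In all, 4 of the 9 phosphatase genes rose, 1 fell and 4 did not pass. Of all 18886 genes tested in RNA, 8.26% passed, 3.58% as higher and 4.68% as lower. The stimulated and unstimulated ranges were apart for the same 5 family members, 4 upward and 1 downward, as they were for 15.4% of all tested genes upward and 13.6% downward. The family's median log2 change was 0.25 and that of all tested genes 0.39. The split of all calls depended on the scaling, with 677 higher and 883 lower here, against 334 and 1364 with RLE, 1005 and 4215 by library totals, 525 and 1151 without the 4 abundant genes and 353 and 2559 by DESeq2. The median change of the same genes shifted by -0.21, -0.17, -0.10 and -0.30 in that order. The directions of Dusp2, Dusp4, Dusp5, Dusp8 and Dusp10 were the same under each of these.

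The stimulated libraries were spread in parallel for all 9 genes, with replicate 1 lowest and replicate 3 highest for each. Summed over the family, RNA was 944, 1145 and 1624 CPM in stimulated replicates 1, 2 and 3, against 730, 645 and 759 CPM in unstimulated replicates 1, 2 and 3. The share of counts taken by Gm10800, Gm10801, Gm20594 and Lars2 was 25.01, 22.5 and 12.8% in the same stimulated libraries, and 4.09, 14.9 and 5.14% in the unstimulated ones. The part of these genes in the spread was not tested. When scaling and testing were restricted to genes of at least 10 CPM in RNA, which leaves out Dusp7 and Dusp8, the stimulated libraries drew together. Dusp5 then stood at 421, 444 and 467 CPM in stimulated and 223, 223 and 236 CPM in unstimulated cells. Dusp1 stood at 57.7, 56.7 and 57.9 CPM in stimulated cells, beside 60.9, 56.1 and 60.03 CPM in unstimulated cells. The coefficient of variation among stimulated libraries was 25.6% for Dusp5 and 21.2% for Dusp1 on all genes, and 5.16 and 1.12% with the restriction. With it, Dusp2, Dusp4, Dusp5 and Dusp16 passed as higher and Dusp10 as lower, 5 of the 7 members tested. Of all 8494 genes tested that way 73.3% passed, 36.9% as higher and 36.4% as lower, and the ranges of 76.1% were apart, as were those of the same 5 members. The family's share there was close to that of all genes.

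**Figure D2:**
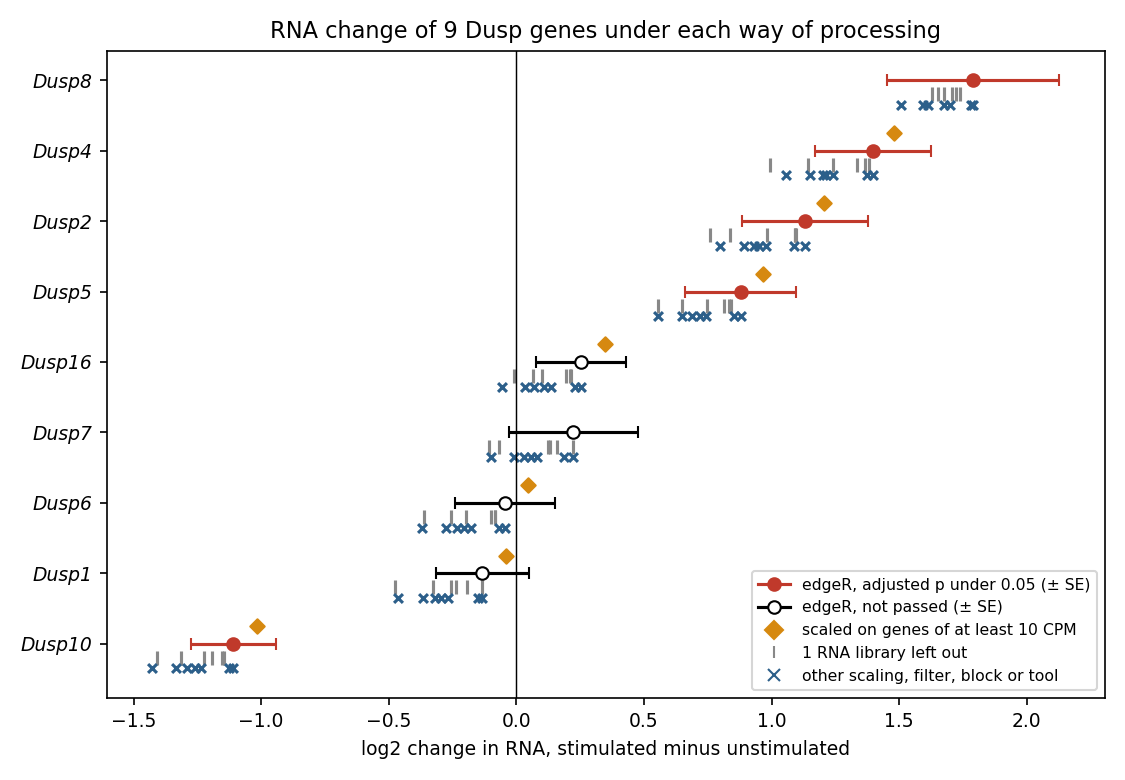
Log2 change in RNA, stimulated minus unstimulated (horizontal axis), for each gene, with the edgeR value ± SE as a circle (red where adjusted p is under 0.05) and the alternatives as smaller marks. Dusp4 and Dusp10 stay far from 0 under each setting (0.99 to 1.48 and -1.43 to -1.02), whereas marks for Dusp6, Dusp7 and Dusp16 fall on both sides of 0.

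The genes nearest to Dusp4 and Dusp10 in RNA pattern were found by Euclidean distance between log2 CPM over the 6 RNA libraries, centred on the unstimulated mean, among 8493 other genes of at least 10 CPM. Nearest to Dusp4, the raised member with the smallest p, were Ppan (distance 0.11, log2 change 1.39), Grasp (0.15, 1.32) and Nop16 (0.17, 1.44). Ppan and Nop16 encode ribosome assembly factors of the nucleolus. Nearest to Dusp10 were Pde4b (0.07, log2 change -1.09), which encodes a cyclic AMP phosphodiesterase, Tspyl4 (0.07, -1.09) and the corepressor gene Tle4 (0.08, -1.10). Their changes are like those of Dusp4 and Dusp10 by the way they were chosen.

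Footprints were few, and only Dusp2 and Dusp5 had enough to be tested. The 9 genes together had 107 footprints of 44489 in stimulated cells and 64 of 40944 in unstimulated cells, and Dusp2 with Dusp5 accounted for 86 and 50 of them. Dusp2 had 24 and 31 footprints in stimulated replicates 2 and 3 (1110 and 1291 CPM), against 11, 13 and 8 in the unstimulated libraries (1144, 858 and 496 CPM). The stimulated libraries lay higher than 2 of the 3 unstimulated ones, and replicate 2 lay just below unstimulated replicate 1. The log2 change was 0.58 ± 0.48 (edgeR adjusted p = 0.514). Dusp5 had 13 and 18 footprints in stimulated libraries (601 and 749 CPM), against 2, 4 and 12 in unstimulated ones (208, 264 and 745 CPM). Unstimulated replicate 3 was nearly as high as the higher stimulated library, so the groups overlap. Its log2 change was 0.65 ± 0.68 (edgeR adjusted p = 0.629), and without unstimulated replicate 3 it was 1.41 (edgeR adjusted p = 0.362). Neither gene passed in 13 alternatives. Of the 256 genes tested in footprints 9.38% passed, 5.86% as higher and 3.52% as lower.

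The other 7 genes did not reach the count filter in footprints. Dusp4 had 0 and 12 footprints in stimulated replicates 2 and 3, against 0, 1 and 2 in unstimulated cells. All 12 stimulated footprints of Dusp4 thus came from 1 library. Dusp1 had 2 and 1 footprints in stimulated cells and 2 in each unstimulated library. Dusp6 had 0 in both stimulated libraries and 0, 2 and 0 in unstimulated ones, and Dusp16 had 0 and 1 against 1, 2 and 0. Dusp10 had 2 and 0 in stimulated libraries, Dusp7 1 and 1, and Dusp8 1 and 0, and all 3 genes had 0 in each unstimulated library. A count of 0 has an exact 95% Poisson upper limit of 3.69 footprints, or 82.9 CPM over both stimulated libraries and 90.1 CPM over the 3 unstimulated ones. These numbers are too small to show a change of any of the 7 genes at this depth.

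**Figure D3:**
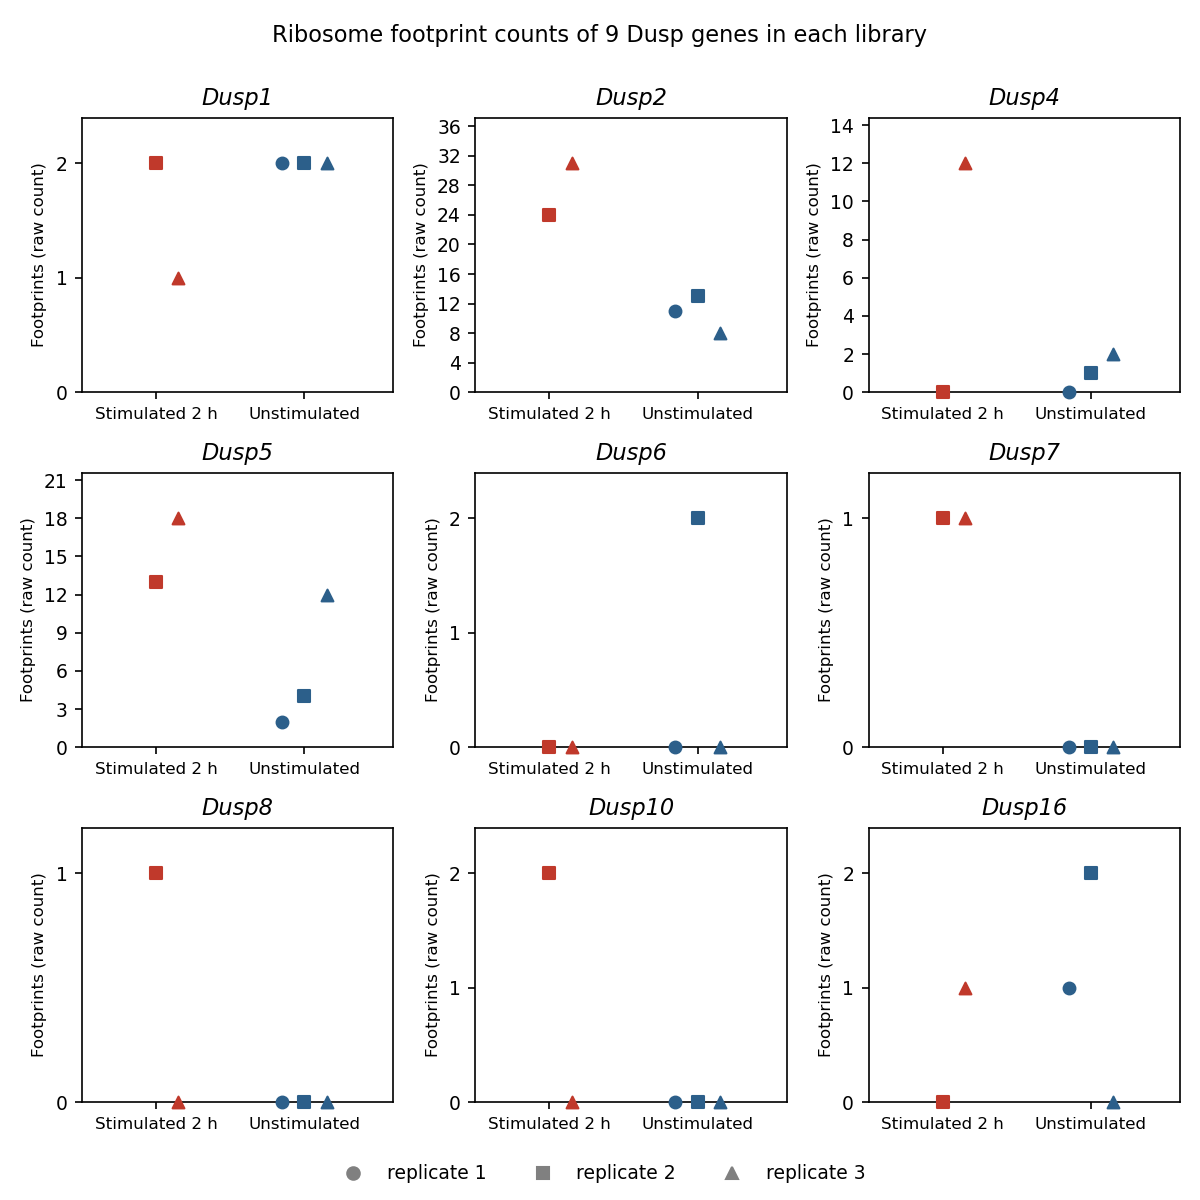
Raw footprint count of each gene (vertical axis, from 0, with its own scale in each panel) in the 2 stimulated and 3 unstimulated footprint libraries. Dusp2 (24 and 31 in stimulated, 8 to 13 in unstimulated libraries) and Dusp5 (13 and 18 in stimulated, 2 to 12 in unstimulated libraries) hold most footprints of the family, and library depth, from 11136 to 23641, is not corrected for here.

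Footprints per RNA were taken as a gene's share of all footprints in a state divided by its mean share of counts over the 3 RNA libraries of that state, so that coding length cancels and a value of 1 means equal shares. The intervals below are exact 95% Poisson limits of the footprint count and cover counting error only. Dusp2 had 2.77 (2.09 to 3.60) in stimulated and 3.34 (2.28 to 4.72) in unstimulated cells. Both intervals lay above 1, and 83.9 and 90.6% of genes with at least 10 CPM in RNA had a lower value. Dusp5, with 1.76 (1.19 to 2.496) in stimulated and 1.79 (1.06 to 2.83) in unstimulated cells, was also above 1 in both states. These values depend on the totals, since the 4 abundant genes took up to 25.01% of RNA counts. With totals that leave them out, the limits of Dusp5 reached below 1, at 1.41 (0.957 to 2.00) in stimulated and 1.65 (0.979 to 2.61) in unstimulated cells. Those of Dusp2 stayed above 1, at 2.23 (1.68 to 2.90) in stimulated and 3.09 (2.11 to 4.36) in unstimulated cells. Dusp4 had 2.26 (1.17 to 3.95) in stimulated cells, all from 1 library, and 1.41 (0.291 to 4.13) in unstimulated cells. Without the 4 genes its stimulated value was 1.81 (0.937 to 3.17), with limits that include 1. Dusp1 had 1.32 (0.272 to 3.85) and 2.29 (0.842 to 4.99), and Dusp16 had 0.583 (0.0148 to 3.25) and 1.99 (0.411 to 5.82), in stimulated and unstimulated cells in each case. For these 2 the limits include 1 in both states.

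Dusp6 had few footprints. With equal shares, 3.11 footprints would fall on it in stimulated cells, where 0 were counted (upper limit of the ratio 1.19), and 3.37 in unstimulated cells, where 2 were counted (ratio 0.594, 0.0720 to 2.15). For Dusp10 in unstimulated cells 1.25 would be expected and 0 were counted, with an upper limit of 2.95, and in stimulated cells its 2 footprints gave 3.61 (0.438 to 13.1). For Dusp7 and Dusp8 at most 0.351 footprints would be expected in either state. With these totals all of the limits include 1. Without the 4 genes 3.89 footprints would be expected on Dusp6 in stimulated cells and the upper limit of its ratio was 0.949, below 1, so for Dusp6 a departure from equal shares depends on the totals used.

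The change in footprints relative to RNA (translational efficiency) was taken from the assay-by-stimulation interaction in 1 model of all 11 libraries. For Dusp2 it was -0.53 ± 0.52 on the log2 scale (edgeR adjusted p = 0.798), and it was negative in all 19 alternatives, between -0.89 and -0.07. For Dusp5 it was -0.24 ± 0.61 (edgeR adjusted p = 0.949), between -0.59 and 0.55 over 19 alternatives. Neither passed under any setting, with adjusted p of at least 0.472. Of the 255 genes tested, 0% passed by edgeR, where 28 had an unadjusted p under 0.05. DESeq2 called 29 of 10636 genes.

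**Figure D4:**
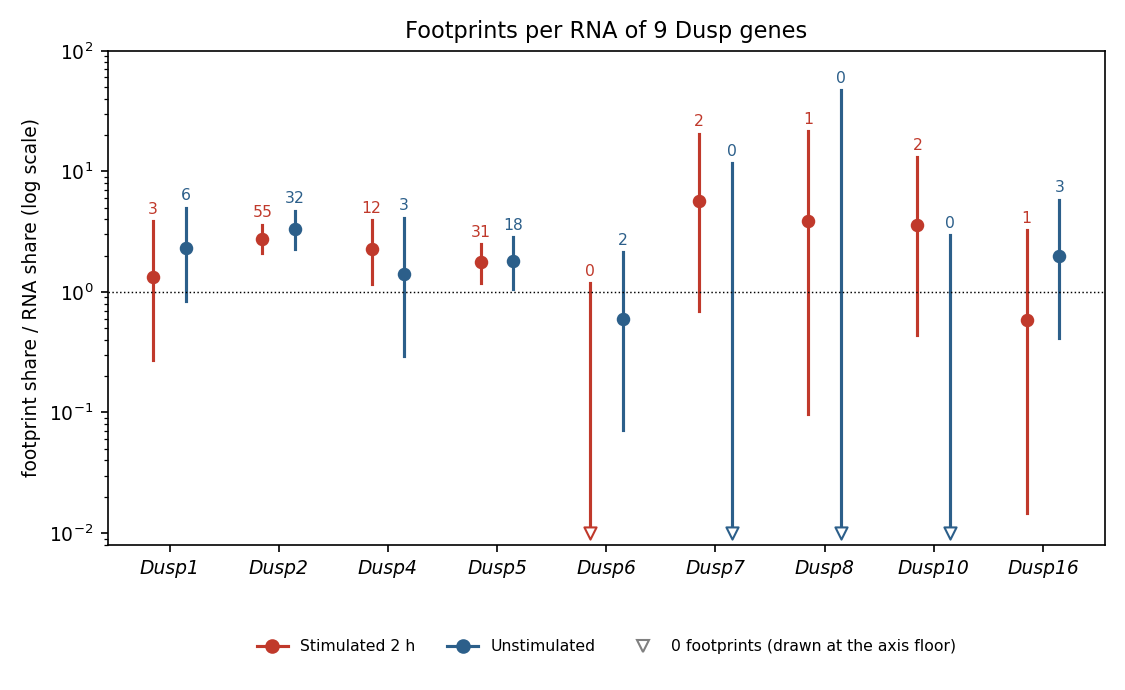
Share of footprints divided by share of RNA for each gene (vertical axis, log scale) in stimulated and unstimulated cells, with exact 95% Poisson limits as lines and the number of footprints printed above each. The values and limits of Dusp2 and Dusp5 lie above the dotted line of equal shares in both states, on totals that include the 4 abundant genes. Values are 2.77 and 3.34 for Dusp2 and 1.76 and 1.79 for Dusp5. Without those 4 genes the limits of Dusp5 reach below 1. Dusp1 (1.32 and 2.29) and Dusp4 (2.26 and 1.41) also lie above the line, with limits that include 1 in at least 1 state. Open triangles mark 0 footprints.

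Of 9 tested genes for the MAP kinases these phosphatases act on, 2 fell and 7 did not pass, where 4.68% of all genes fell. The median log2 change of these 9 genes was 0.01, against 0.39 for all tested genes. Mapk14, which encodes p38 alpha, had 49.1 ± 11.1 CPM in stimulated and 92.9 ± 6.93 CPM in unstimulated cells (SD, n = 3 each, log2 change -0.92 ± 0.19, edgeR adjusted p = 0.0130). That call was lost without stimulated replicate 1 (0.0643) or 2 (0.0521). Mapk3, which encodes ERK1, fell by 0.66 on the log2 scale (edgeR adjusted p = 0.0132), a call lost without stimulated replicate 1 (0.0739) or 2 (0.0853) or unstimulated replicate 1 (0.116) or 3 (0.110).

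Where 3.58% of all tested genes rose and 4.68% fell, 1 of 7 MAP kinase kinase genes, upstream of the kinases, rose and none fell. It was Map2k3, an activator of p38, with 248 ± 66.5 CPM in stimulated and 107 ± 4.94 CPM in unstimulated cells (SD, n = 3 each, log2 change 1.21 ± 0.22, edgeR adjusted p = 0.00625, lost without stimulated replicate 2, 0.0759). Of 24 genes for MAP3 kinases and Ras inputs, 1 rose and 3 fell, beside the same shares of all genes. Map3k8, the kinase TPL2 upstream of ERK, rose by 1.04, a call lost with RLE scaling (0.0663), without stimulated replicate 1 (0.0702) or 2 (0.161) or without unstimulated replicate 3 (0.0957). Rasa3, a GTPase activating protein for Ras and Rap, changed by -1.37 ± 0.21 and passed in all 14 alternatives. Map3k1 (-0.82) and Map3k3 (-0.76) passed in 10 of 14. Both calls were lost without stimulated replicate 1 (0.139 for Map3k1, 0.174 for Map3k3) or 2 (0.144 and 0.177) and without unstimulated replicate 1 (0.0650 and 0.103) or 3 (0.130 and 0.160), in the same order of genes.

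Of 16 effector kinases and transcription factors, 4 rose and 1 fell, where 3.58% of all tested genes rose and 4.68% fell. Jun, a target of JNK, had 166 ± 50.4 CPM in stimulated and 35.2 ± 3.84 CPM in unstimulated cells (SD, n = 3 each, log2 change 2.24 ± 0.23, edgeR adjusted p = 2.0e-04). The p38-activated kinase gene Mapkapk3 rose by 1.23, lost without stimulated replicate 2 (0.0556), and Rps6ka5, which encodes a kinase downstream of ERK and p38, changed by -0.82, lost without stimulated replicate 2 (0.0844). Rps6ka2, a kinase of the RSK family, stood apart with 855 ± 203 CPM in stimulated and 3.71 ± 1.49 CPM in unstimulated RNA (SD, n = 3 each, log2 change 7.86 ± 0.38, edgeR adjusted p = 5.4e-07), and 0 footprints in all 5 footprint libraries.

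Of 20 genes known as outputs of ERK signalling, 12 rose, none fell and 8 did not pass. Of all tested genes, 3.58% rose and 4.68% fell. The list's median log2 change was 0.97, against 0.39 for all tested genes. The 4 genes with the smallest p are given next. Spry1, an inhibitor of Ras signalling, had 169 ± 40.1 CPM in stimulated and 21.9 ± 2.02 CPM in unstimulated cells (SD, n = 3 each, log2 change 2.95 ± 0.22, edgeR adjusted p = 1.6e-05). Ier3 rose by 3.04, Myc by 1.83 and Spred1, a relative of Spry1, by 1.44, and these 4 passed in all 14 alternatives. Among other phosphatases that act on MAP kinases none of 10 passed by edgeR, where the test called 8.26% of all genes. Those with the most RNA counts were Ppp2ca, a catalytic subunit of PP2A (0.34 ± 0.20, adjusted p = 0.325), and Ptpn7, a tyrosine phosphatase of ERK and p38 in blood cells (0.14 ± 0.22, adjusted p = 0.649). Both passed as higher with scaling on genes of at least 10 CPM (0.44 and 0.22), as did 36.9% of all genes tested that way. Ptpn7 was below 0 with RLE scaling, library totals and scaling without the 4 genes. Of 14 atypical dual-specificity phosphatases tested, which lack the kinase-binding domain, 2 rose, where 3.58% of all tested genes rose. Dusp14 had 8.36 ± 1.33 CPM in stimulated and 3.50 ± 0.346 CPM in unstimulated cells (SD, n = 3 each, log2 change 1.26 ± 0.26, edgeR adjusted p = 0.0117), lost without stimulated replicate 2 (0.149) or unstimulated replicate 1 (0.0509) or 3 (0.120). Dusp12 (0.67 ± 0.17, adjusted p = 0.0377) passed in 6 of 14 alternatives. It was lost with DESeq2 (0.351), RLE (0.205), scaling without the 4 genes (0.105), no filter (0.149), without stimulated replicate 1 (0.237) or 2 (0.278) and without unstimulated replicate 1 (0.119) or 3 (0.293).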

How the data were processed

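Ribosome footprints and RNA were sequenced from OT1 cells. STAR 2.5 and the build mm10 (GRCm38) are named in the submitters' processing notes. What the authors deposited is an unnormalized count of reads for each gene, taken on its coding sequence by the naming of the files. The counting program, annotation release, strand handling and read filters are not given in the sources used here. Symbols came from an identifier table (21838 of 21957 matched), positions and promoters from RefSeq GRCm38.p6. All columns were mapped to a sample.

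Each assay was fitted alone with edgeR 4.0.16 (R 4.3.3), as quasi-likelihood F tests with TMM scaling and the filter on low counts (minimum 10, total 15). Efficiency was the interaction of assay and stimulation. Adjusted p is Benjamini-Hochberg over all genes tested, two-sided, threshold 0.05, with SE from the log2 change and F. Scripts were tested on simulated data. One list of markers is not reported here. DESeq2 1.42.0 was an alternative. Totals over the genes tested, and footprints per RNA with totals that leave out 4 abundant genes, were added after seeing the data. The level per coding length that was planned could not be made. Members and lists were chosen with earlier results of these data known. Beside the 9 members, named genes are up to 4 per list that passed in RNA (or the 2 most abundant) and 3 nearest to a member in each direction.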

Additional observations from a re-analysis of the deposited data

How the results depend on the processing

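Dusp4 and Dusp10 passed in RNA under all 14 alternatives. The number of family members that passed was 5, 3 with RLE scaling, and 2 to 7 with 1 RNA library left out. Of all 18886 tested genes, 1560 passed in the main fit and 1698 with RLE scaling. The 7 came without unstimulated replicate 2, where 13024 of 19219 tested genes passed. The 2 came without stimulated replicate 2 (583 of 19142 genes) or without unstimulated replicate 3 (646 of 19487). The sign changed for members that did not pass: Dusp6 (0.044 on genes of at least 10 CPM), Dusp7 (-0.10 by DESeq2, -0.0085 with RLE, -0.066 without stimulated replicate 3, and -0.11 to 0.22 with 1 library left out, lowest without unstimulated replicate 2) and Dusp16 (-0.057 by DESeq2, and -0.0091 to 0.21 with 1 library left out, lowest without unstimulated replicate 2). Ptpn7 changed sign by DESeq2 (-0.19), RLE (-0.099), library totals (-0.057), scaling without 4 genes (-0.0080), no filter (-0.033), and without stimulated replicate 3 (-0.11) or unstimulated replicate 2 (-0.21, the lowest with 1 library left out, where the highest was 0.12). The efficiency change of Dusp5 turned positive with no filter (0.18), with totals over the genes tested (0.012), without unstimulated RNA replicate 2 (0.075) and without unstimulated footprint replicate 3 (0.55), and with 1 library left out it ranged from -0.59 to 0.55. Over all genes, RNA calls numbered 1560, against 2912 by DESeq2, 5220 by library totals, 6228 on genes of at least 10 CPM and 583 to 13024 with 1 library left out. Footprint calls numbered 24, against 11 with no filter and 12 to 30 with 1 library left out. Efficiency calls numbered 0, against 29 by DESeq2, 1 with RLE, 15 by library totals, 2 without 4 genes, 3 with no filter, 10 on genes of at least 10 CPM, 20 with totals over the genes tested and 0 to 24 with 1 library left out. The cause was not tested. With replicate number as a block, 2404 genes were called in RNA and 1 for efficiency, and no family member's call in RNA changed. Same-numbered RNA samples deviated with correlations of -0.40, 0.30 and 0.62, and differently numbered ones with -0.69 to 0.57. With so few libraries these values cannot show whether the numbers pair the samples. Footprint depth limits 7 of the 9 members to counts.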

Other observations

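Footprints of Jun and several ERK output genes that were too few for the filter lay apart between the groups. These genes were chosen after their values were seen, and the share of all genes whose footprints lay apart was not counted. Fos had 14 and 7 footprints in the stimulated libraries, against 0, 0 and 1 in the unstimulated ones, 472 CPM (exact 95% Poisson limits 292 to 722) and 24.4 CPM (0.618 to 136) over each state. Egr2 had 20 and 11, against 2 in each unstimulated library, 697 CPM (473 to 989) and 147 CPM (53.8 to 319). Egr3 had 11 and 13 against 3, 0 and 0, 539 CPM (346 to 803) and 73.3 CPM (15.1 to 214). Jun had 8 and 9 against 2, 0 and 0, 382 CPM (223 to 612) and 48.8 CPM (5.92 to 176). These limits cover counting error only, and the genes were not tested in footprints. Other ERK output genes below the filter did not lie apart in this way. Fosl1, Etv5 and Spry2 had 0 in both stimulated libraries, against totals of 1, 1 and 2 in unstimulated ones. Phlda1 and Spry1 overlapped, and Ccnd1, Etv4, Spry4, Spred1 and Spred2 had 0 in every library. Junb, with 32 and 41 footprints against 7, 4 and 9, was the ERK output gene that passed in footprints (log2 change 1.67 ± 0.50, edgeR adjusted p = 0.00954), of 5 tested.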
